A study of Mus musculus with 12 samples.

Results

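Ribosomes are made in the nucleolus. RNA polymerase I transcribes the ribosomal RNA genes, small nucleolar ribonucleoproteins (snoRNPs) direct the chemical modification of the transcript, and large sets of assembly factors cut it, fold it and load it with ribosomal proteins until the small (40S) and the large (60S) subunit are ready for export. Growing cells spend much of their energy on this work, and stem and progenitor cells of the germ line are among the cells whose differentiation is known to respond to it. The genes described here are 57 of these factors, chosen by name and role with earlier results of these libraries known. They are 57 of the 17576 genes of the table, and all 57 were found by symbol. The roles are RNA polymerase I transcription (6 genes), abundant nucleolar proteins (4), box C/D snoRNPs (4), box H/ACA snoRNPs (4), the small subunit processome (15), late 40S maturation (6) and 60S assembly (18).

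The cells were C18-4, an immortalized line made from mouse spermatogonia and used as a model of spermatogonial stem cells, and the labels give the strain as IRC mouse. All 4 groups carried a lentiviral vector. The group KD (C18_5251KD in the labels) received a mix of shRNAs against lncRNA5251 in the vector LV3, and 3NC received LV3 with a control shRNA. The group OV (C18_5251OV in the labels) received lncRNA5251 in the vector LV5, and 5NC received LV5 with no insert. Each group had 3 libraries, 12 in all, and neither the labels nor the methods say whether these came from separate cultures, so the p-values measure the spread between these libraries, which may be technical. The culture goes with the group in every comparison, and in KD against 5NC and 5NC against 3NC the vector does too. The culture, and in KD against 5NC the vector, cannot be told apart from the intended change in lncRNA5251. In KD the same holds for a fall in Purb, described below, a gene that the shRNAs also match. In contrast, 5NC against 3NC compares vectors, control inserts and cultures with no intended change in lncRNA5251. A heading in the supplementary methods on these cells says lncRNA8276, while the main text and the labels name lncRNA5251.

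Values are RPKM (reads per kilobase of gene and scaled to the reads of the library) as the authors computed them, so a level is a share of the library's messenger RNA and the depth in reads is unknown. RPKM summed to between 533099 and 580920 in a library, and any pair of libraries within a group had a Spearman's rho of at least 0.9925 over the genes tested. Differences are given on the log2(RPKM + 1) scale, where low values make a change look smaller. A gene was tested where at least 3 libraries reached 1 RPKM, which held for 11435 genes and for all 57 members. The words rose and fell are used for members and genes with an adjusted p of at most 0.05 in limma with Benjamini-Hochberg adjustment over the 11435 genes. The stricter threshold of the study asks for an adjusted p of at most 0.001 and a log2 difference of at least 1. Because the cells were measured in bulk, fewer cells of a type and less RNA per cell cannot be told apart.

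The transcript lncRNA5251 had no row of its own. Each of the 3 knockdown sequences had an exact sense match in the transcripts of 1 gene, Purb, and none had a match in a member. Purb, which encodes a nucleic acid binding protein, was at 32.9, 34.1 and 33.8 RPKM in 3NC and at 8.93, 8.79 and 10.3 in KD, a fall of 1.75 in log2 units (standard error 0.097, adjusted p = 1.69e-09). In OV it was at 23.9, 24.2 and 33.3 RPKM and in 5NC at 29.2, 32.1 and 30.7. These groups overlapped, and the difference between them did not pass the test (log2 difference -0.19, standard error 0.097, adjusted p = 0.176). The fall in Purb goes with the group KD in every comparison, so it cannot be told apart from the intended fall of lncRNA5251. The part of Purb in the results on the members was not tested. With no row for lncRNA5251, these values hold no direct measure of it in KD. They also hold no check of the overexpression in the libraries labelled OV.

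Markers of the labelled cell type were sparse. Of 16 spermatogonial markers, 15 were in the table and 4 reached 1 RPKM in 3 libraries, while Gfra1, Ret, Zbtb16, Nanos2, Ddx4 and Dazl were among the 11 below 1 RPKM in every library. The summed RPKM of this list was between 71.3 and 78.6 in KD, between 87.6 and 96.8 in 3NC, between 98.2 and 102.0 in 5NC and between 114.0 and 131.0 in OV. The mean log2(RPKM + 1) of the 4 tested markers had another order, between 3.32 and 3.44 in 3NC, 3.02 and 3.11 in 5NC, 2.97 and 3.11 in OV and 2.92 and 2.96 in KD. In KD against 3NC, 3 of the 4 were lower and 1 was higher, with a median of -0.32, where 23.5% of all genes tested were lower and 31.9% higher. In 5NC against 3NC, 2 were lower and 1 higher, with a median of -0.20, where 25.6% of all genes tested were lower and 31.0% higher. Of 10 mesenchymal and myoid markers, 7 were tested, with Myh11, Col1a2 and Thy1 below 1 RPKM throughout. Their sum was between 838.0 and 882.0 in 3NC, between 958.0 and 1060.0 in KD and between 1160.0 and 1300.0 in the LV5 groups. Of the 7, 5 were higher and 0 lower in KD against 3NC, with a median of 0.51, and 5 were higher and 1 lower in 5NC against 3NC, with a median of 0.57, beside the same shares of all genes tested. Of 11 Sertoli markers, 4 were tested, Sox9 and Amh were among the 6 below 1 RPKM, and the sum stayed between 59.6 and 67.5. Of 7 Leydig markers, 1 was tested, Cyp11a1 and Cyp17a1 were below 1 RPKM, and the sum did not pass 2.43. The part of these markers in the results on the members was not tested.

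Promoter sequences give a first view of the members. The table of RefSeq promoters on GRCm38.p6, which covers 250 bases before and 50 after an annotated start, had an entry for 51 of the 57 members. The letters CACGTG, the E-box that Myc and related transcription factors are known to bind, were searched on both strands, which read alike. They occurred in the promoters of 12 of the 51 members (23.5%), of 1106 of the 9195 tested genes with an entry (12.03%) and of 2187 of all 27025 genes with an entry (8.09%). The non-canonical form CACGCG, searched with its reverse complement CGCGTG, occurred in 16 of the 51 members (31.4%), in 21.0% of the tested genes and in 10.5% of all genes. A match to CACGTG cannot overlap a match to CACGCG or CGCGTG, whereas matches to the latter pair can overlap each other. The E-box windows of the 12 members are shown because they carry the letters that these genes share. Each runs from 12 bases before the E-box to at most 12 after it on the strand of the gene, with the E-box in capitals, and the genes are ordered from the largest fall in KD to the smallest.
Nop2 (chr6:125131811-125131840, plus strand): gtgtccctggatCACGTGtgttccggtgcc
Grwd1 (chr7:45830740-45830767, minus strand): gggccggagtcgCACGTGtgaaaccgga
Utp20 (chr10:88826765-88826789, minus strand): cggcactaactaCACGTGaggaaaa
Tsr1 (chr11:74898092-74898121, plus strand): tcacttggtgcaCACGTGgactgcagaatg
Wdr43 (chr17:71616220-71616249, plus strand): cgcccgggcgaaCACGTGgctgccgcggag
Nle1 (chr11:82908355-82908384, minus strand): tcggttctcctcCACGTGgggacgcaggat
Pno1 (chr11:17211540-17211564, minus strand): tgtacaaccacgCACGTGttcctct
Imp4 (chr1:34439696-34439725, plus strand): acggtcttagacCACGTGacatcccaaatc
Ltv1 (chr10:13193092-13193121, minus strand): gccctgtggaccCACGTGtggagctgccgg
Pes1 (chr11:3963965-3963994, plus strand): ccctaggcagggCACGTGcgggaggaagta
Utp18 (chr11:93885769-93885798, minus strand): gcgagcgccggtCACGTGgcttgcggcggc
Rrn3 (chr16:13780472-13780501, plus strand): gagcgccaaggtCACGTGcacacgcctcta
Rrn3 (chr16:13780639-13780668, plus strand): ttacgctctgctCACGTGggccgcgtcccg
The E-box began 60 bases before the start in Nop2, 20 in Utp18, 121 in Imp4 and 48 and 215 in Rrn3. In Pes1, Wdr43, Nle1, Tsr1, Ltv1, Grwd1, Utp20 and Pno1 it began between 2 and 37 bases after the start. A match is a description of the letters and not a bound site.

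The 250 bases before the start are shown for 3 members that differ in their response to the knockdown, Nop2 and Dkc1, which have large falls, and Nop10, the member that rose. Capitals mark the E-box, which is present in the first of them.
Nop2 (chr6:125131633-125131882, plus strand): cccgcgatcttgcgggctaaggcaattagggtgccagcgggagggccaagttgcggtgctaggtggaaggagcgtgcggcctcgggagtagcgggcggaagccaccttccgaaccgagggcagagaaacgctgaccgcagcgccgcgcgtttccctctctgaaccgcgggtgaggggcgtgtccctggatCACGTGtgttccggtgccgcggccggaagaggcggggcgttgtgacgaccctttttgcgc
Dkc1 (chrX:75095604-75095853, plus strand): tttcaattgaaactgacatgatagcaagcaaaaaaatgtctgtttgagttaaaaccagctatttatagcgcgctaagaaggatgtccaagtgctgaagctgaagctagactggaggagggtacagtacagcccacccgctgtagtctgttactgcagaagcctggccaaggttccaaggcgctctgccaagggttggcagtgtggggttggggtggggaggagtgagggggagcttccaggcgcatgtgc
Nop10 (chr2:112261676-112261925, plus strand): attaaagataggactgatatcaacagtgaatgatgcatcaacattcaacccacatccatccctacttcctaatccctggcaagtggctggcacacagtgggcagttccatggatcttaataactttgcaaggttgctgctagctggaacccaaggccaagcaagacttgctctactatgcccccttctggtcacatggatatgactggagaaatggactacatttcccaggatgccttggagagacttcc
G and C made up 67.6% of these bases in Nop2, 52.0% in Dkc1 and 47.2% in Nop10. The coordinates are those of the RefSeq table, since the build used by the authors is not named.

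The knockdown question is addressed by KD against 3NC. Ribosome biogenesis genes were lower in KD across all 7 roles. Of the 57 members, 53 fell, 1 rose and 3 did not pass the test. Among all genes tested, 23.5% fell and 31.9% rose in this comparison, against 93.0% and 1.75% of the members. The median log2 difference was -0.68 over the members and 0.0407 over all genes tested, and the members ranged from -1.49 to 0.25. The median member kept 61.2% of its 3NC level. In 53 members the KD libraries were all below the 3NC libraries, a position taken by 27.1% of all genes tested. At the study's threshold 11 members were lower, namely Rrp12, Nop2, Dkc1, Grwd1, Nhp2, Heatr1, Utp20, Tsr1, Rrs1, Ddx21 and Polr1b, while 1.08% of all genes tested were lower there. Levels in 3NC ran from 7.41 RPKM for Polr1e to 1587 for Npm1, with a median of 38.3. The level in 3NC and the log2 difference in KD had a Spearman's rho of 0.232 across the 57 genes, which share the libraries and are not independent.

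**Figure D1:**
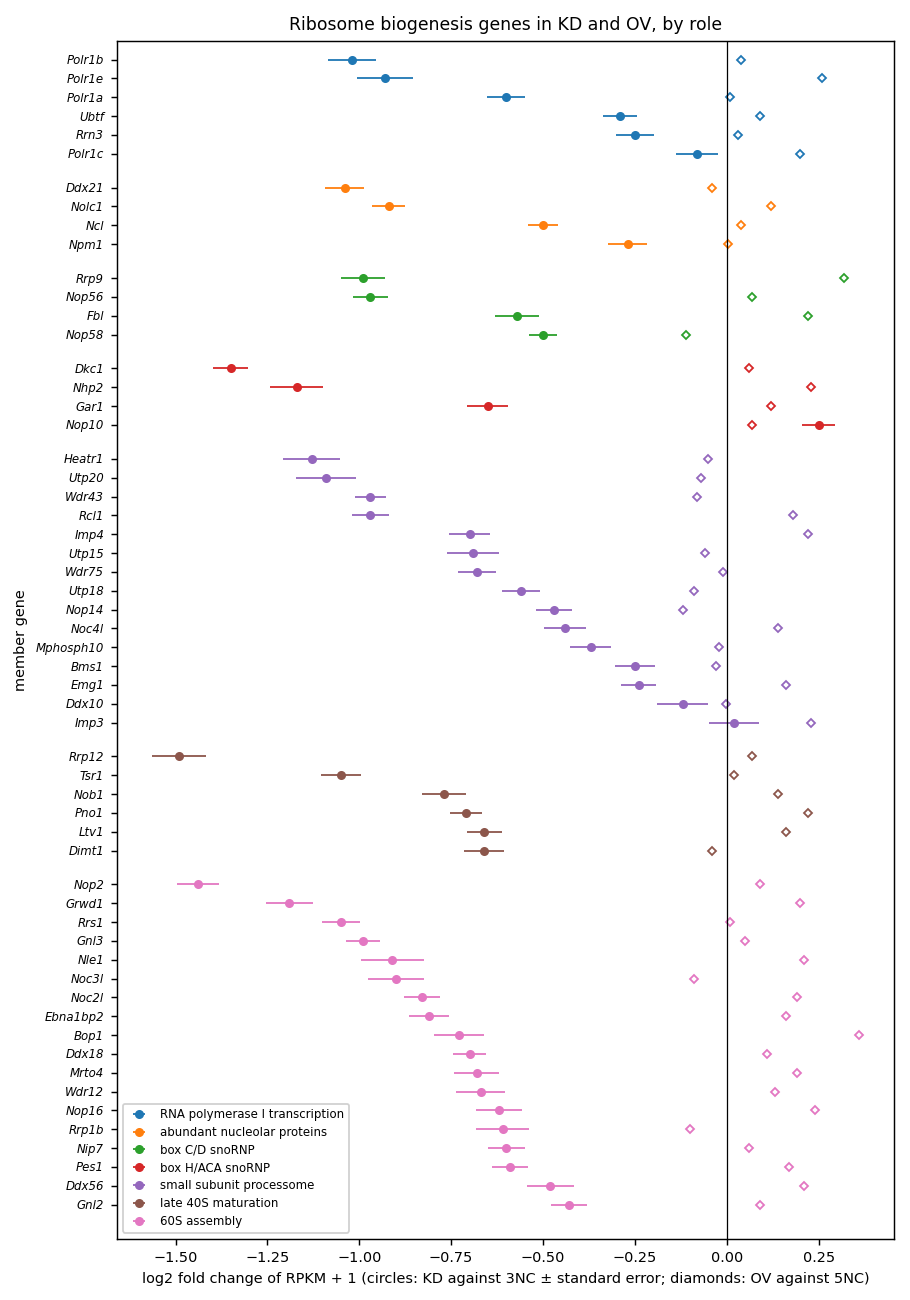
Log2 differences of RPKM + 1 (horizontal axis) for each of the 57 members (vertical axis), coloured by role: circles are KD against 3NC with the standard error, open diamonds are OV against 5NC. The circles of 55 members lie left of 0, down to -1.49, those of Nop10 and Imp3 lie right of it, and the diamonds stay between -0.12 and 0.36.

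The mean of log2(RPKM + 1) over the members set the KD libraries apart. It was 5.377, 5.377 and 5.36 in 3NC, 4.665, 4.677 and 4.662 in KD, 5.368, 5.359 and 5.369 in 5NC, and 5.451, 5.471 and 5.436 in OV. The 3 KD libraries lay below all 9 others, the 2 control groups overlapped, and the 3 OV libraries lay above both. Over all genes tested the mean stayed between 3.992 and 4.031 in the 12 libraries.

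**Figure D2:**
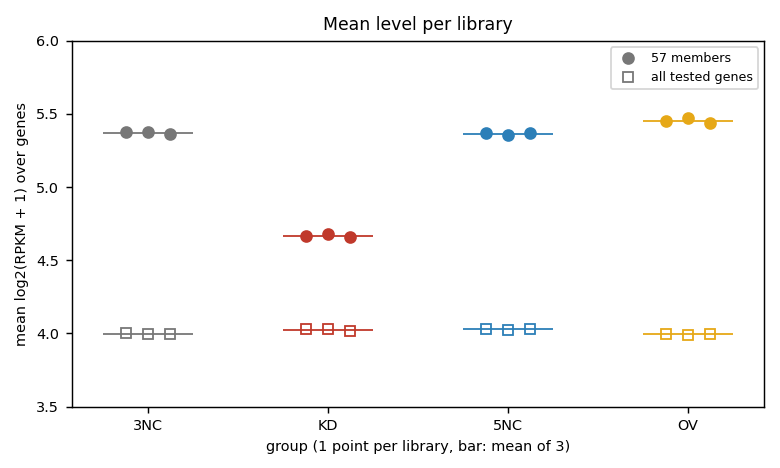
Mean log2(RPKM + 1) over genes (vertical axis, from 3.5 to 6) in each library of the 4 groups (horizontal axis), with filled circles for the 57 members, open squares for all genes tested and a bar for the mean of 3 libraries. The member mean of KD is at 4.662 to 4.677, below 5.359 to 5.471 in the other groups, while the squares stay at 3.992 to 4.031.

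Among the 6 genes of RNA polymerase I transcription, 5 fell in KD and the median difference was -0.45. Polr1a, the largest catalytic subunit, was at 26.6, 27.4 and 26.5 RPKM in 3NC and 17.3, 18.5 and 16.4 in KD, and fell by 0.60 in log2 units (standard error 0.052, adjusted p = 1.93e-07). Polr1b, the second largest subunit, was at 11.3, 12.2 and 11.97 RPKM in 3NC and 5.22, 4.99 and 5.73 in KD, and fell by 1.02 (standard error 0.065, adjusted p = 8.37e-09). In both genes the KD libraries were the lowest 3 of the 12. Polr1e, a subunit with a role in initiation, was at 7.42, 7.40 and 7.41 RPKM in 3NC and 3.79, 3.48 and 3.03 in KD, and fell by 0.93 (standard error 0.077, adjusted p = 1.3e-07). Its 5NC libraries, at 4.78, 4.91 and 5.48 RPKM, were also below 3NC, with a log2 difference of -0.48. The factors that bring the polymerase to the ribosomal RNA genes moved less, with differences of -0.29 for Ubtf, which binds these genes, and -0.25 for Rrn3, which joins the polymerase for initiation. Polr1c, which RNA polymerases I and III share, was at 75.4, 70.2 and 73.3 RPKM in 3NC and 68.9, 71.7 and 66.2 in KD. The Polr1c groups overlapped, and its difference of -0.08 did not pass the test (standard error 0.057, adjusted p = 0.243).

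All 4 abundant nucleolar proteins fell in KD, and the most abundant of them fell least. Npm1 encodes nucleophosmin, a histone and ribosome chaperone, and Ncl encodes nucleolin, which binds ribosomal RNA precursors. Npm1 was at 1610.0, 1627 and 1522 RPKM in 3NC and 1238, 1283 and 1443 in KD, and fell by 0.27 in log2 units (standard error 0.054, adjusted p = 0.000667). Ncl was at 238, 247 and 236 RPKM in 3NC and 169, 169 and 172 in KD, and fell by 0.50 (standard error 0.04, adjusted p = 1.02e-07). Neither gene overlapped between the groups, and KD replicate 3 of Npm1 came closest to 3NC. Pseudogenes of Npm1 could share its reads, depending on the mapping. Nolc1, a snoRNP chaperone, was at 62.5, 61.8 and 61.5 RPKM in 3NC and 33.9, 32.6 and 30.6 in KD, and fell by 0.92 (standard error 0.045, adjusted p = 5.46e-10). Ddx21, an RNA helicase of the nucleolus, was at 74.7, 76.1 and 72.3 RPKM in 3NC and 36.2, 34.7 and 36.0 in KD, and fell by 1.04 (standard error 0.053, adjusted p = 7.74e-10). It kept 47.9% of its 3NC level, against 83.3% for Npm1.

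The 4 proteins of box C/D snoRNPs, which guide the methylation of ribose in ribosomal RNA, all fell in KD. Fbl, the methyltransferase fibrillarin, was at 183, 175 and 190.0 RPKM in 3NC and 121, 131 and 117 in KD, and fell by 0.57 in log2 units (standard error 0.06, adjusted p = 1.55e-06). Nop56, a core protein of the particle, was at 142, 137 and 142 RPKM in 3NC and 69.1, 71.6 and 73.4 in KD, and fell by 0.97 (standard error 0.047, adjusted p = 4.62e-10). Nop58, the other core protein of this pair, was at 129, 128 and 124 RPKM in 3NC and 87.8, 89.4 and 92.6 in KD, and fell by 0.50 (standard error 0.039, adjusted p = 7.21e-08). Both core proteins were higher in the LV5 control than in 3NC, with Nop56 at 185, 184 and 189 RPKM and Nop58 at 187, 179 and 182 in 5NC, so their distance from KD was larger there (log2 differences -1.37 and -1.01). Rrp9, which belongs to the U3 particle of the small subunit processome, was at 22.3, 21.4 and 19.9 RPKM in 3NC and 10.5, 10.7 and 9.31 in KD, and fell by 0.99 (standard error 0.06, adjusted p = 4.4e-09).

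Box H/ACA snoRNPs, which guide pseudouridine formation and also hold telomerase RNA, contained both the third largest fall and the rise. Dkc1, the pseudouridine synthase dyskerin, was at 34.4, 35.3 and 33.6 RPKM in 3NC, 12.4, 12.9 and 13.6 in KD, 28.4, 29.2 and 28.5 in 5NC and 29.7, 29.5 and 30.7 in OV. Its KD libraries were far below the other 9, and it fell by 1.35 on the log2 scale against 3NC (standard error 0.047, adjusted p = 1.78e-11), keeping 37.6% of its level. Nhp2 was at 93.5, 94.0 and 95.1 RPKM in 3NC and 40.4, 41.9 and 41.6 in KD, and fell by 1.17 (standard error 0.072, adjusted p = 5.45e-09). Gar1 was at 37.95, 42.4 and 38.97 RPKM in 3NC and 23.9, 25.8 and 25.2 in KD, and fell by 0.65 (standard error 0.056, adjusted p = 2.12e-07). Nop10, the smallest protein of the same particle, was at 111, 115 and 108 RPKM in 3NC and 132, 137 and 129 in KD. All 3 KD libraries of Nop10 lay above all 9 others, since 5NC was at 93.2, 89.8 and 92.1 and OV at 98.2, 99.3 and 92.6. It rose by 0.25 log2 units (standard error 0.044, adjusted p = 0.000226). The 4 proteins of 1 particle thus ranged from -1.35 to 0.25 in the same libraries.

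The small subunit processome, which assembles on the early transcript and prepares the 40S subunit, had 13 of 15 genes lower in KD, with a median of -0.56. Heatr1, a large scaffold protein, was at 14.0, 14.04 and 13.6 RPKM in 3NC and 5.65, 5.81 and 5.94 in KD, and fell by 1.13 in log2 units (standard error 0.077, adjusted p = 1.69e-08). Utp20, another large scaffold, was at 12.1, 12.02 and 12.2 RPKM in 3NC and 5.45, 5.16 and 4.81 in KD, and fell by 1.09 (standard error 0.081, adjusted p = 4.32e-08). Wdr43 was at 63.2, 62.4 and 62.02 RPKM in 3NC, 31.4, 30.95 and 31.7 in KD and 83.3, 83.7 and 81.9 in 5NC, and fell by 0.97 (standard error 0.043, adjusted p = 1.87e-10). The share of the 3NC level left in KD was 41.8% for Heatr1, 42.5% for Utp20 and 50.1% for Wdr43. Rcl1 also fell by 0.97, Imp4 by 0.70, Utp15 by 0.69, Wdr75 by 0.68 and Utp18 by 0.56. Smaller falls were measured for Nop14 (-0.47), Noc4l (-0.44), Mphosph10 (-0.37), the GTPase Bms1 (-0.25) and the methyltransferase Emg1 (-0.24). Imp3, which together with Imp4 and Mphosph10 forms a complex that works with U3, was at 50.2, 51.3 and 53.1 RPKM in 3NC and 48.6, 52.2 and 56.5 in KD. The ranges of Imp3 overlapped, and its difference of 0.02 did not pass the test (standard error 0.069, adjusted p = 0.805). The members of that complex therefore differed, with -0.70 for Imp4 and -0.37 for Mphosph10 beside 0.02 for Imp3. The helicase Ddx10 was at 16.4, 17.1 and 15.7 RPKM in 3NC and 14.8, 14.5 and 15.9 in KD, again with overlapping ranges (log2 difference -0.12, standard error 0.07, adjusted p = 0.172).

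All 6 genes of late 40S maturation fell in KD, with a median of -0.74. Rrp12, an export and maturation factor, was at 15.6, 16.1 and 15.5 RPKM in 3NC, 5.44, 5.37 and 4.13 in KD, 17.7, 16.9 and 17.7 in 5NC and 17.9, 18.5 and 18.5 in OV. It had the largest fall of the 57 members, 1.49 in log2 units (standard error 0.074, adjusted p = 6.1e-10), and kept 31.7% of its 3NC level. Tsr1, a factor that blocks early joining of the subunits, was at 47.4, 47.4 and 46.9 RPKM in 3NC and 22.7, 22.1 and 22.0 in KD, and fell by 1.05 (standard error 0.054, adjusted p = 9.09e-10). Nob1, the nuclease of the last cut of the small subunit RNA, was at 51.96, 50.4 and 51.5 RPKM in 3NC and 29.9, 30.8 and 28.1 in KD, and fell by 0.77 (standard error 0.059, adjusted p = 5.42e-08). Its partner Pno1 fell by a similar amount, 0.71. Dimt1, which methylates adenines of the small subunit RNA, was at 21.6, 24.1 and 22.7 RPKM in 3NC and 13.9, 14.7 and 13.7 in KD, and fell by 0.66 (standard error 0.054, adjusted p = 1.26e-07). Ltv1, an assembly factor of the 40S head, fell by 0.66 as well.

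In 60S assembly all 18 genes fell in KD, from -1.44 to -0.43, with a median of -0.72. Nop2, which methylates cytosine in the large subunit RNA, was at 63.1, 60.8 and 63.02 RPKM in 3NC, 22.4, 24.3 and 20.4 in KD, 63.3, 61.8 and 63.7 in 5NC and 68.95, 68.9 and 62.9 in OV. No KD library of Nop2 passed 24.3 RPKM and no other library was below 60.8, and the fall against 3NC was 1.44 in log2 units (standard error 0.057, adjusted p = 6.82e-11). Grwd1, a chaperone of a ribosomal protein, was at 39.02, 36.7 and 39.5 RPKM in 3NC and 16.3, 17.8 and 14.6 in KD, and fell by 1.19 (standard error 0.064, adjusted p = 1.16e-09). Rrs1, which helps to load an early RNA and protein particle into the 60S precursor, was at 24.8, 24.5 and 24.2 RPKM in 3NC and 11.4, 11.8 and 10.6 in KD, and fell by 1.05 (standard error 0.052, adjusted p = 5.92e-10). Gnl3, the GTPase nucleostemin, fell by 0.99, while the related Gnl2 was at 45.97, 45.7 and 47.4 RPKM in 3NC and 36.4, 32.1 and 34.02 in KD, and fell by 0.43 (standard error 0.049, adjusted p = 3.21e-06). The 3 genes of the PeBoW complex moved by close amounts, -0.73 for Bop1, -0.67 for Wdr12 and -0.59 for Pes1. The Noc proteins fell by 0.90 (Noc3l) and 0.83 (Noc2l) and Nle1 by 0.91. Ebna1bp2 fell by 0.81, the helicases Ddx18 and Ddx56 by 0.70 and 0.48, and Mrto4 by 0.68. Nop16, Rrp1b and Nip7 fell by 0.62, 0.61 and 0.60.

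**Figure D3:**
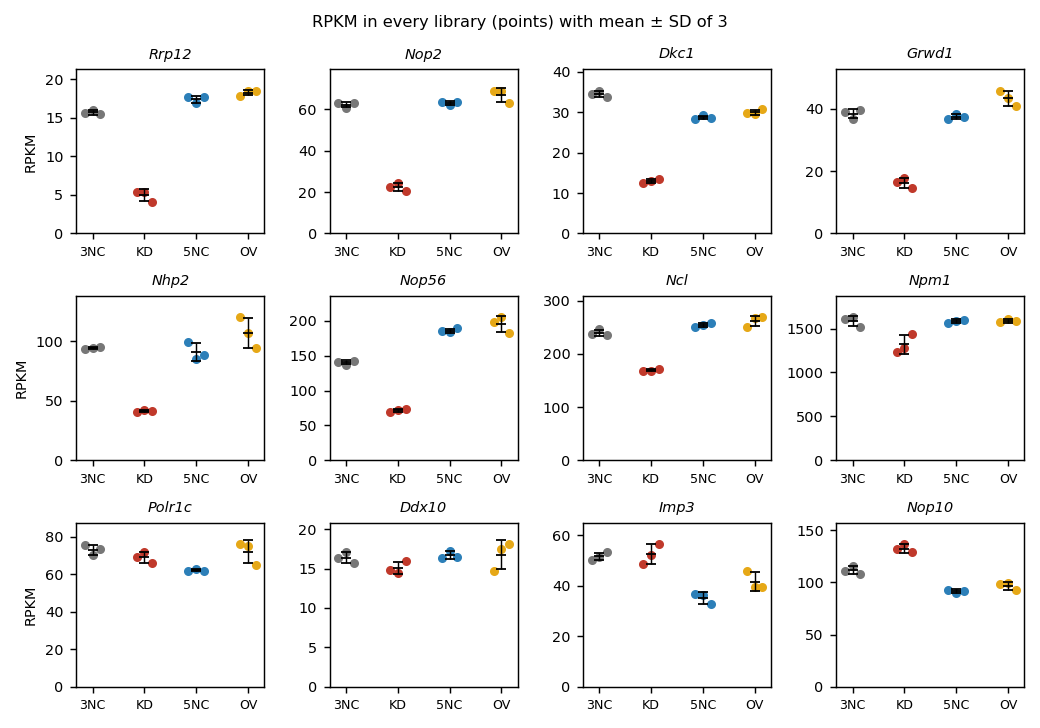
RPKM (vertical axes, each from 0) in every library of the 4 groups (horizontal axes) for 12 members, with points for libraries and a bar for the mean ± SD of 3. In Rrp12, Nop2, Dkc1, Grwd1 and Nhp2 the KD points lie far below all others, in Npm1 and Ncl they are lower by a smaller share, in Polr1c, Ddx10 and Imp3 they overlap with 3NC, and in Nop10 they are the highest.

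The second control gave nearly the same picture. Against 5NC, 50 members were lower in KD, 3 were higher (Nop10, Imp3 and Polr1c) and 4 did not pass the test (Bms1, Emg1, Ddx10 and Gnl2), with a median of -0.64. Among all genes tested 31.4% were lower and 34.0% higher here, and the median was 0.0163. All 50 members lower against 5NC were also lower against 3NC, although both comparisons use the KD libraries. At the study's threshold 17 members were lower than in 5NC, where 2.29% of all genes tested were. Of the 11 at this threshold against 3NC, 8 were among them, and Heatr1 (-0.96), Ddx21 (-0.88) and Polr1b (-0.88) were short of the fold limit. In 50 members every KD library was below each of the other 9 libraries, and 14.8% of all genes tested had that order.

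The controls 5NC and 3NC were unlike in single members, without a common direction. In 5NC against 3NC, 12 members were higher, 17 were lower and 28 did not pass the test, shares of 21.1% and 29.8% beside 31.0% and 25.6% of all genes tested, and the median was -0.0063. The 3 largest differences were in the small subunit processome. Nop14 was at 38.7, 42.4 and 40.1 RPKM in 3NC and 64.4, 63.2 and 62.1 in 5NC, higher by 0.63 in log2 units (standard error 0.048, adjusted p = 3.32e-08). Noc4l, its partner in early 40S assembly, was at 23.5, 22.7 and 21.9 RPKM in 3NC and 34.2, 34.4 and 32.6 in 5NC, higher by 0.55 (standard error 0.057, adjusted p = 1.02e-06). Imp3 was at 36.8, 36.4 and 32.5 RPKM in 5NC, below all 3NC libraries, with a difference of -0.54 (standard error 0.069, adjusted p = 1.03e-05). For Nop14 the choice of control changes the size of the knockdown difference from -0.47 to -1.11, for Noc4l from -0.44 to -0.99, and for Imp3 from 0.02 to 0.56.

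The overexpression question is addressed by OV against 5NC, where the differences were small. Of the 57 members, 19 rose, 1 fell and 37 did not pass the test, and the median was 0.0857. Among all genes tested 8.07% rose and 13.9% fell, with a median of -0.0272, beside 33.3% and 1.75% of the members. No member reached the study's threshold, and the range was from -0.12 to 0.36. Every OV library was above every 5NC library in 27 members, an order found in 14.6% of all genes tested. Of the 19 that rose, 8 belong to 60S assembly, 4 to the small subunit processome, 2 each to polymerase I, the box C/D particles and late 40S maturation, and 1 to the box H/ACA particles.

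Bop1, a PeBoW protein, was at 31.4, 28.7 and 30.03 RPKM in 5NC and 42.02, 39.6 and 35.2 in OV, and rose by 0.36 in log2 units (standard error 0.068, adjusted p = 0.00375). Rrp9 was at 23.1, 21.9 and 22.9 RPKM in 5NC and 29.2, 28.8 and 27.3 in OV, and rose by 0.32 (standard error 0.06, adjusted p = 0.00359). Polr1e was at 4.78, 4.91 and 5.48 RPKM in 5NC and 5.78, 6.66 and 6.35 in OV, and rose by 0.26 (standard error 0.077, adjusted p = 0.0268). These are the largest rises of the 57, and their OV libraries did not overlap with 5NC. Next were Nop16 (0.24), Nhp2 (0.23), Imp3 (0.23), Imp4 (0.22), Pno1 (0.22) and Fbl (0.22), all past the test. The 1 member lower was Nop58, at 187, 179 and 182 RPKM in 5NC and 169, 171 and 167 in OV, with a difference of -0.11 (standard error 0.039, adjusted p = 0.0496). This call for Nop58 was lost with a pseudocount of 0.1 (adjusted p = 0.0503), median ratio scaling, the replicate block, no intensity trend or the fit to 6 libraries, and when any of 11 of the 12 libraries was left out, all but KD replicate 3. Its adjusted p ran from 0.0044 to 0.163 over the alternatives. Ncl, Npm1, Nolc1 and Ddx21, the abundant nucleolar proteins, had differences between -0.04 and 0.12, none past the test.

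Single libraries decided the number of these calls. Without OV replicate 1, 2 or 3 it was 4, 3 or 26 members higher, where 3.45%, 3.42% and 14.6% of all genes tested rose. Without 5NC replicate 1, 2 or 3 it was 8, 5 or 8, where 5.49%, 3.8% and 4.29% rose. The median over the members was between 0.0704 and 0.114 when any of the 12 libraries was left out. In OV, replicate 3 was the lowest of the 3 in summed RPKM of the cytosolic ribosomal proteins (119400, 113500 and 101000 in replicates 1, 2 and 3), and the part of that difference in these counts was not tested. In KD against 3NC, 53 members fell and 1 rose whichever library was left out.

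Of the 53 members that fell in KD, 17 rose in OV, which rests on separate controls, and 3.7% of all genes tested were lower in KD and higher in OV. Without OV replicate 1 or 2 it was 4 or 3 members, where 1.85% and 1.74% of all genes tested did so. Without 5NC replicate 1, 2 or 3 it was 7, 5 or 8 members (2.57%, 1.96% and 2.11% of all genes tested), so the count rested on each of these 5 libraries. It was also lower without a filter on low values (11 members, 1.82%) and in the fit to the 6 libraries compared (10 members, 2.55%), and higher without OV replicate 3 (24 members, 6.14%) and with median ratio scaling (21 members, 5.85%). The alternatives for this count were chosen after the data were seen. The 17 are Polr1e, Fbl, Rrp9, Nhp2, Imp4, Emg1, Rcl1, Ltv1, Pno1, Nop16, Bop1, Pes1, Ebna1bp2, Mrto4, Ddx56, Noc2l and Grwd1. The difference of the responses, KD minus 3NC less OV minus 5NC, was tested in the same fit. It was negative and past the test in 54 members, positive in 1 (Nop10, 0.17, adjusted p = 0.0303), and not past it in Imp3 (-0.21, adjusted p = 0.0857) and Ddx10 (-0.11, adjusted p = 0.35). The positive call of Nop10 was lost with median ratio scaling (0.09, adjusted p = 0.264), without the intensity trend (adjusted p = 0.0569), and when 3NC replicate 1 or 3, 5NC replicate 1 or 3 or KD replicate 2 was left out, and its adjusted p ran from 0.00388 to 0.264 over the alternatives. The median over the members was -0.81, beside 0.0731 over all genes tested, of which 20.7% were lower and 31.2% higher. The largest were -1.56 for Rrp12, -1.53 for Nop2 and -1.40, -1.40 and -1.40 for Dkc1, Nhp2 and Grwd1.

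**Figure D4:**
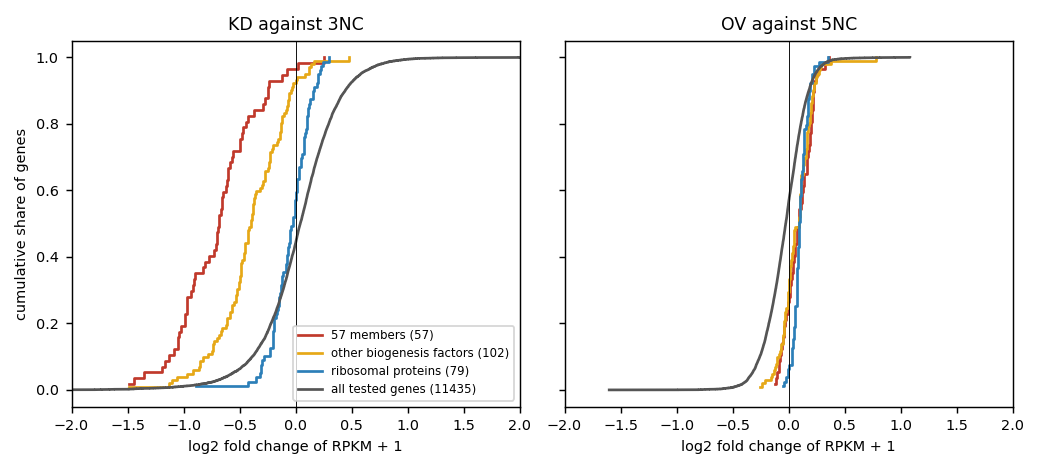
Cumulative share of genes (vertical axis) by log2 difference of RPKM + 1 (horizontal axis, from -2 to 2) in KD against 3NC (left) and OV against 5NC (right) for the 57 members, 102 other biogenesis factors, 79 ribosomal proteins and all 11435 genes tested. On the left the member curve lies furthest to the left with a median of -0.68, followed by the other factors at -0.40, while ribosomal proteins (-0.02) and all genes (0.04) rise near 0, and on the right all curves rise near 0.

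Other factors of the pathway, which are no members, mostly fell in KD as well. Of 105 listed, 102 were tested, and 77 fell and 3 rose in KD against 3NC, with a median of -0.40. Those shares, 75.5% and 2.94%, stand beside 23.5% and 31.9% of all genes tested. In OV against 5NC, 16 of them rose, 2 fell and 84 did not pass the test (15.7% and 1.96%, beside 8.07% and 13.9% of all genes tested). The median of these factors in OV was 0.0866, with 70 of 102 differences positive, beside 0.0857 and 42 of 57 for the members. Mybbp1a, a nucleolar protein that binds polymerase I, was at 143, 145 and 143 RPKM in 3NC and 52.1, 53.1 and 46.2 in KD, a fall of 1.49 (standard error 0.05, adjusted p = 1.49e-11). It was also higher in OV, at 139, 142 and 134 RPKM beside 116, 112 and 113 in 5NC (log2 difference 0.28, adjusted p = 0.00248). Wdr46 of the small subunit processome fell by 1.13 in KD, and the 60S factors Ppan, Ftsj3 and Rrp15 fell by 1.10, 1.06 and 0.97. The 3 that rose were Taf1b, a part of the promoter factor of polymerase I (0.48), Nol7 (0.16) and Nsa2 (0.12).

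Ribosomal protein genes, the products of which the members assemble, did not share the size of the change in KD. Of 79 cytosolic ribosomal protein genes, 20 fell, 8 rose and 51 did not pass the test in KD against 3NC, with a median of -0.02. Those shares, 25.3% and 10.1%, stand beside 23.5% and 31.9% of all genes tested. Against 5NC, 44 were higher and 9 lower in KD, with a median of 0.19, and these shares, 55.7% and 11.4%, stand beside 34.0% and 31.4% of all genes tested. Between the controls 51 were lower and 3 higher in 5NC than in 3NC (64.6% and 3.8%, beside 25.6% and 31.0% of all genes tested). In OV 10 rose and 0 fell, and the 12.7% that rose stand beside 8.07% of all genes tested. Their median in OV was 0.095, with 74 of 79 differences positive, beside 0.0857 and 42 of 57 for the members. Over all genes tested that median was -0.0272. OV replicate 3 was the lowest of the OV libraries in the summed RPKM of this family. Of 13 subunits and factors of RNA polymerase III, which makes the small RNA of the large subunit, 7 fell and 1 rose in KD against 3NC. The median was -0.29, and these shares, 53.8% and 7.69%, stand beside 23.5% and 31.9% of all genes tested. Against 5NC, 5 of the 13 were lower and 3 higher in KD, with a median of -0.0549. Those shares, 38.5% and 23.1%, stand beside 31.4% and 34.0% of all genes tested.

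Myc encodes a transcription factor known to drive ribosome biogenesis genes. It was at 22.3, 23.9 and 23.9 RPKM in 3NC and 8.06, 7.50 and 7.33 in KD, and fell by 1.50 in log2 units (standard error 0.057, adjusted p = 4.45e-11). In 5NC it was at 35.01, 34.4 and 33.1 RPKM and in OV at 44.8, 39.5 and 40.99, a rise of 0.28 (standard error 0.057, adjusted p = 0.00506). Its KD libraries were the lowest of the 12 and its OV libraries the highest, and 5NC was higher than 3NC by 0.53 (adjusted p = 1.65e-06), a step that the member mean did not share. The 12 members with an E-box in the promoter had a median difference of -0.81 in KD, the 39 with an entry and no E-box -0.67. Among tested genes the medians were -0.0073 with and 0.0432 without an E-box. For CACGCG the median was -0.61 in the 16 members that had it and -0.70 in the 35 that did not, and among tested genes it was 0.0259 with and 0.0406 without it. The part of Myc in these results was not tested.

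Within the 57, most members followed the common pattern over the 12 libraries, and a few did not. Pearson's r of log2(RPKM + 1) with the mean of the other members was lowest for Nop10 (-0.856), Imp3 (-0.547), Polr1c (0.04), Bms1 (0.397), Gnl2 (0.572) and Ddx10 (0.605). Outside the members, the tested genes most like the member mean over the 12 libraries were Gpatch4 (r = 0.9962), Atic (0.9962), Aen (0.9958), Bhlhe40 (0.995) and Lif (0.9942). Gpatch4 was at 31.6, 31.4 and 30.8 RPKM in 3NC and 13.1, 13.8 and 12.9 in KD, and Atic, an enzyme of purine synthesis, at 74.8, 72.6 and 72.3 and 44.0, 45.4 and 44.3. These correlations describe libraries that fall into separate groups and carry no test.

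The GENCODE basic annotation was searched for protein-coding genes and several classes of noncoding genes, without small RNA genes or pseudogenes. Among these, an exon of another gene on the opposite strand overlaps 17 members, and no exon on the same strand does. The 17 are Bop1, Dimt1, Dkc1, Emg1, Gnl2, Gnl3, Grwd1, Imp4, Nhp2, Nle1, Noc2l, Nop14, Nop56, Pes1, Polr1a, Rrp1b and Tsr1. The library kit is not stated to mark strand, so reads of such overlapping genes cannot be told apart there.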

How the data were processed

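RNA of C18-4 cells was measured in 4 groups of 3 libraries, grouped by the genotype given in the sample labels. The methods state enrichment of messenger RNA with oligo(dT), while the labels name total RNA. The authors mapped reads with SOAPaligner and deposited RPKM for 17576 genes. The genome build, the gene set and the filter are not given in the sources used here. RPKM keep neither read numbers nor depth, so no counting interval is given, and the authors' test, which needs reads, was not run.

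From the deposited RPKM, log2(RPKM + 1) was fitted with limma 3.58.1 in R 4.3.3 (eBayes with an intensity trend, a term for group, all 12 libraries) over the 11435 genes that reached 1 RPKM in 3 or more libraries, with Benjamini-Hochberg adjustment. The fit was tested on simulated data. An exact permutation test of 3 libraries against 3 cannot give a two-sided p below 0.1, so none is given. The members and lists were chosen with earlier results of these data known, so counts over them are read beside those of all genes. Values per library are given for the 3 members of each role with the largest call in KD against 3NC, the member of each role with the smallest difference, and the 3 largest in OV against 5NC and in 5NC against 3NC. Of the other biogenesis factors, up to 5 rises and 5 falls are named. Promoters are from RefSeq (GRCm38.p6), overlapping exons and shRNA matches from GENCODE vM21. Plots come from matplotlib 3.10.9 (Python 3.11.15).

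Alternatives were a pseudocount of 0.1, no filter on low values, quantile normalization, median ratio scaling, a replicate block, no intensity trend, a fit to the 6 libraries compared, the study's threshold and each library left out in turn.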

Additional observations from a re-analysis of the deposited data

How the results depend on the processing

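In KD against 3NC, no call of a member was lost under any alternative run at an adjusted p of at most 0.05 (limma), and the counts stayed at 53 lower and 1 higher. At the study's threshold, which adds a fold limit, the counts of members lower and higher were 11 and 0 in KD against 3NC. They were 0 and 0 in OV against 5NC and in 5NC against 3NC, and 17 and 0 in KD against 5NC. For the KD difference minus the OV difference they were 19 and 0. In that comparison 161 of the 11435 genes tested were lower at this threshold and 167 were higher.

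The median over the members in KD against 3NC was -0.706 with a pseudocount of 0.1, -0.73 with median ratio scaling, and between -0.712 and -0.67 with 1 library left out. In KD against 5NC it was -0.617 after quantile normalization, -0.661 with median ratio scaling, and between -0.661 and -0.62 with 1 library left out. In 5NC against 3NC it was -0.0531, -0.0317 and between -0.0246 and -0.00595 under the same alternatives. For the KD difference minus the OV difference it was -0.842 with a pseudocount of 0.1, -0.846 after quantile normalization, -0.898 with median ratio scaling, and between -0.856 and -0.799 with 1 library left out. The member higher in that comparison was lost (0 higher) with median ratio scaling and without the intensity trend, and the count was between 0 and 1 with 1 library left out.

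In OV against 5NC the counts of calls moved with the processing. The members higher numbered 12 without a filter on low values and 10 in the fit to the 6 libraries compared. Of all genes in those fits 4.06% and 5.48% rose. With 1 library left out the members higher numbered between 3 and 26, where 3.42% and 14.6% of all genes tested rose. The members lower numbered 0 with a pseudocount of 0.1, median ratio scaling, no intensity trend or the fit to 6 libraries. Under these settings between 7.55% and 13.9% of all genes tested fell. With 1 library left out the members lower numbered between 0 and 2, where between 5.1% and 21.9% of all genes tested fell. The median was 0.122 with median ratio scaling and between 0.0704 and 0.114 with 1 library left out. The cause was not tested.

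Replicate numbers gave no common pairing of the libraries. Same-numbered libraries of 3NC and KD had deviations correlated at -0.0343, -0.13 and -0.178, and those of 5NC and OV at 0.176, -0.133 and 0.0267. Those of KD and OV were at -0.0116, 0.178 and 0.354. Same-numbered libraries of 3NC and 5NC were at 0.0608, 0.0962 and 0.0494, where unlike-numbered ones were between -0.0583 and -0.0016. With the number as a replicate block, 17 members were higher and 0 lower in OV against 5NC, beside 7.77% and 14.0% of all genes tested. In KD against 3NC, 53 were lower and 1 higher, beside 23.5% and 31.9% of all genes tested.

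Imp3, which did not pass the test in KD against 3NC, changed sign to -0.03 with median ratio scaling and without KD replicate 3, and was between -0.03 and 0.07 with 1 library left out. Of the values for single members under alternatives, 3845 kept their direction and side of the threshold, 164 lost the call and these 2 changed sign. These numbers cover all members in KD against 3NC but only the members called in the other comparisons. Calls gained by other members are therefore not among them. The members higher in OV against 5NC rose to 23 with median ratio scaling, where 11.9% of all genes tested were higher. Without OV replicate 3 they rose to 26, where 14.6% of all genes tested were higher. RPKM carry no read numbers, so the precision of low genes such as Polr1e and Nle1 cannot be set against depth.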
